A study of Mus musculus with 75 samples.

Results

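Chromatin at 5 genes of leptin receptor signalling, Socs3, Stat3, Stat5a, Stat5b and Ptpn1, was described in nuclei of the mouse hypothalamus. A region of the deposited tables was taken as a member when it overlapped, by 1 bp or more, one of 3 windows set by position in build mm9. The windows were chr11:117780000-117880000 for Socs3, chr11:100635000-100820000 for the neighbouring genes Stat5b, Stat5a and Stat3 (the Stat window), and chr2:167740000-167820000 for Ptpn1. The rule used no measured value. It gave 66 of 175002 regions: 50 of 126368 regions of H3K27ac, an acetylation of histone H3 that marks active promoters and enhancers, and 16 of 48634 regions of open chromatin found by ATAC-seq. The Socs3 window held 15 H3K27ac and 7 ATAC regions, the Stat window 31 and 3, and the Ptpn1 window 4 and 6.

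All mice, controls included, were LepRcre/+; SUN1-sfGFP/+. The leptin receptor gene drives Cre in them, and Cre switches on SUN1-sfGFP, a fluorescent protein of the nuclear envelope. GFP-positive nuclei are thus those of cells that have or once had the leptin receptor (LepRb) active, and GFP-negative nuclei are the rest. There were 4 treatments. Fed mice ate freely for 36 h (their label also names saline). Fast mice were fasted for 36 h with saline at 12, 24 and 34 h. Lep2 mice were fasted alike, received 5 mg/kg of leptin at 34 h, and are labelled 2 hours. Their titles carry SSL, where those of Fast carry SSS and those of Lep24 LLL. The times of any earlier saline injections of Lep2 mice were not among the label values used here. Lep24 mice had the fast with leptin at 5 mg/kg at 12, 24 and 34 h, and are labelled 24 hours. The mice had been raised for 2 months or more, and the sex behind a library is not given in the labels used here. Each assay had 2 libraries in each of the 8 groups of treatment and sort. Hypothalami were pooled, and no label says that replicates came from separate pools, which leaves p-values that cover the spread between libraries alone, possibly a technical one. In sorted bulk nuclei, a signal in fewer nuclei and less signal per nucleus cannot be told apart.

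Leptin, a hormone of fat tissue, binds LepRb on neurons of the hypothalamus and activates the kinase JAK2, which is bound to the receptor. JAK2 phosphorylates tyrosines of the receptor, at which the transcription factors STAT3 and STAT5 (the products of Stat5a and Stat5b) dock. JAK2 phosphorylates them in turn, and they enter the nucleus and bind DNA at sites of the form TTCNNNGAA. Socs3 is a gene that STAT3 switches on, and its product binds the receptor and JAK2 and shuts the signal off. PTP1B, the product of Ptpn1, is a phosphatase that removes phosphate from JAK2. Both inhibitors are known for limiting the response to leptin in these neurons.

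The promoters of an induced inhibitor, of the main transcription factor and of the phosphatase are shown to place the STAT motif at these genes. All 5 genes matched the RefSeq promoter table, with 7 promoters, each of 250 bases before and 50 bases after a start of transcription. The table is of build GRCm38.p6, so its coordinates are not those of the windows. The lines give the 250 bases before the start, 5′ to 3′ on the strand of the gene, with matches to TTCNNNGAA in capitals.

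Socs3 (chr11:117969367-117969616, minus strand): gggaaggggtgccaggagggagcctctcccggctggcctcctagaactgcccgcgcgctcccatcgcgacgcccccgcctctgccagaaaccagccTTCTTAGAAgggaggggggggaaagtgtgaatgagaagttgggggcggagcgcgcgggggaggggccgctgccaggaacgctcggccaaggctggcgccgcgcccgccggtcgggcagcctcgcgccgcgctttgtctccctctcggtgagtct

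Stat3 (chr11:100939541-100939790, minus strand): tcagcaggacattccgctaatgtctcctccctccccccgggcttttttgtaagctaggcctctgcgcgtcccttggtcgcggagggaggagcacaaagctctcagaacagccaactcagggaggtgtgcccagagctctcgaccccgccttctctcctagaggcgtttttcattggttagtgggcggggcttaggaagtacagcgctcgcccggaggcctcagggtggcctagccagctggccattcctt

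Ptpn1 (chr2:167932077-167932326, plus strand): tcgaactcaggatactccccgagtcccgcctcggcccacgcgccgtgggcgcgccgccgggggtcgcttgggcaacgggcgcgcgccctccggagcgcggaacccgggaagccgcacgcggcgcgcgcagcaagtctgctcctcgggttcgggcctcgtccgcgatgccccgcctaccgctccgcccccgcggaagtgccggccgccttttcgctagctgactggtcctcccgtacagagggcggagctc

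The motif reads the same on both strands. The Socs3 promoter held 1 match, TTCTTAGAA, with its first base 154 bases before the start (position -154), and 0 of the other 6 promoters held one. Of all 32851 promoters of the same length in the table, 2726 (8.3%) held the motif. The 300-base promoters of Ptpn1, Socs3 and Stat3 had 74.0%, 73.3% and 60.7% G and C, against a median of 52.7% over the table. Those of Stat5a had 57.7% and 67.7%, and those of Stat5b 47.3% and 82.7%. A match describes the letters and is not a measured binding site.

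Values are the authors' normalized signal per region. Differences are log2 fold changes of signal + 1 from limma, which understate the change of low regions, and a region was called where its p, adjusted by Benjamini-Hochberg over all regions tested in that assay, was below 0.05. Of the members, 44 of 50 H3K27ac regions (11, 29 and 4 in the Socs3, Stat and Ptpn1 windows) and 16 of 16 ATAC regions passed the filter on low mean signal. Total signal per library was 9247619 to 10963342 for H3K27ac and 1232939 to 1415507 for ATAC. In H3K27ac, 6 libraries stood apart: replicate 1 of each treatment but Fast, in both sorts, with 0.075% to 0.238% of their signal on the mitochondrial chromosome against 0.0102% to 0.0384% in the other 10. No Fast library is among the 6, so in the treatment comparisons this difference is mixed with treatment. It touched the members: the summed H3K27ac signal was 2548 to 3011 in the Socs3 window and 2188 to 2606 in the Ptpn1 window in the 6, against 1955 to 2312 and 1527 to 1796 in the other 10, with no overlap. In the Stat window, which holds 29 of the 44 tested members, it was 2513 to 2892 in the 6 and 2276 to 2686 in the other 10, and the sets overlapped. The part of this difference between the sets in the results was not tested beyond the values given for each set. Where a sort difference is given within each set, set and treatment cannot be told apart either, since all Fast libraries are in the other 10. Log2 differences and calls within a set in these Results are from fits with treatment and sort as terms, chosen after seeing the data. Such a fit takes the same sort difference in every treatment. Markers that define the sorted cells were not checked here, since the regions carry no gene names and the gene tables used here are of another build.

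The 3 windows were densely acetylated. H3K27ac regions covered 88.6% of the Socs3 window, 71.7% of the Stat window and 97.1% of the Ptpn1 window, and ATAC regions 9.19%, 2.19% and 11.3%. The Ptpn1 window was nearly filled by 1 H3K27ac region of 69557 bp (167754206 to 167823762), with a mean signal of 1704 ± 381 (SD, n = 8) in GFP-positive and 1736 ± 397 (SD, n = 8) in GFP-negative libraries. Only 155 of 126368 H3K27ac regions were longer. Many members adjoin one another and are pieces of longer stretches: 11, 16 and 3 pairs of H3K27ac members touched in the 3 windows. In each window 1 H3K27ac region reached past the edge.

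All 16 ATAC members overlapped an H3K27ac member, and 83.1% of all ATAC regions overlapped an H3K27ac region. They were held by 7 H3K27ac regions, and these 7 had the densest acetylation. Their mean signal per kb over the 16 libraries was 24.7 to 34.1, and that of the 37 other tested members was 9.02 to 21.6, with a median of 14.0. The most open member was a 1657 bp ATAC region of the Stat window at 100800034 to 100801690. Its mean signal per kb was 111, against 11.9 to 32.4 in the other 15 ATAC members. Since Stat5b, Stat5a and Stat3 lie side by side in this order in RefSeq, a region of the Stat window was not assigned to one of them. Regions of the other windows were not assigned to a gene either. The protein-coding neighbours in RefSeq are Tha1 and Pgs1 for Socs3, and Cebpb and Ripor3 for Ptpn1.

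**Figure D1:**
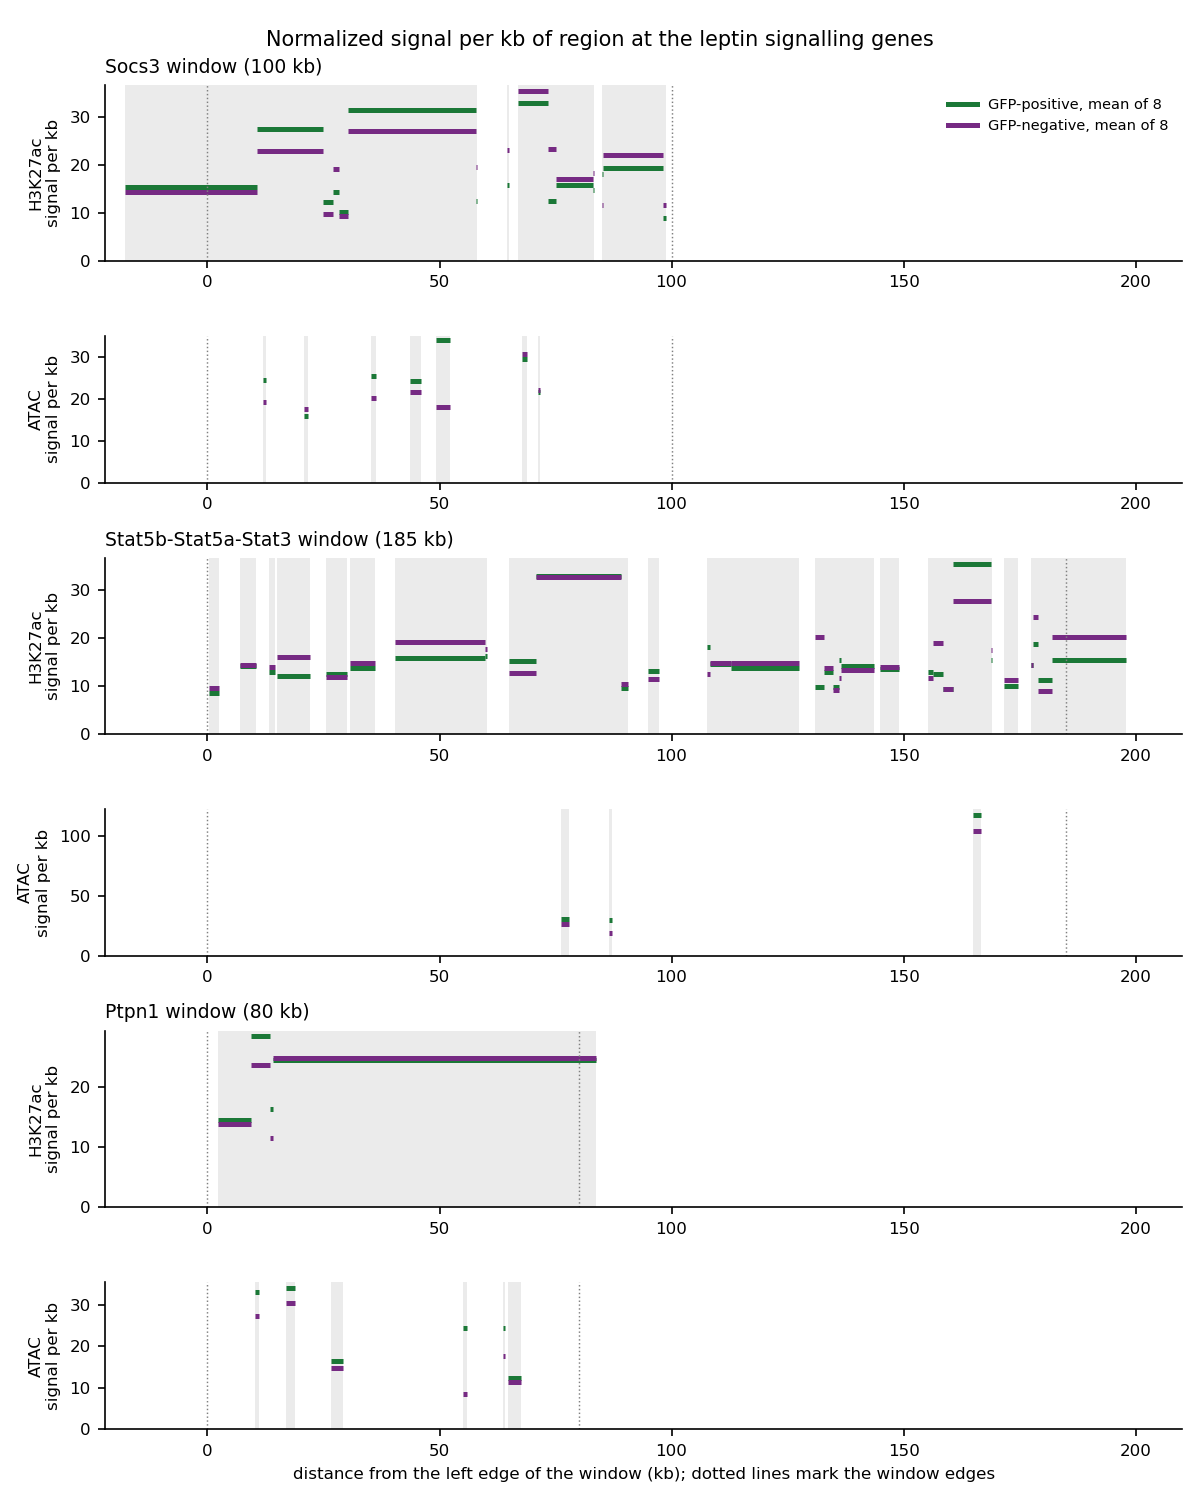
Normalized signal per kb of each H3K27ac and ATAC member along the 3 windows, in kb from the left edge, as the mean of 8 GFP-positive (green) and 8 GFP-negative (purple) libraries. Grey marks each region. The sorts lie apart most at the ATAC region 49.3 to 52.2 kb into the Socs3 window and the one 55.1 to 56.0 kb into the Ptpn1 window, and the tallest ATAC region lies at 165 kb of the Stat window.

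Open chromatin differed between LepRb and other nuclei at 1 region of the Socs3 window and 1 of the Ptpn1 window, both more open in LepRb nuclei. These were the 2 of 16 ATAC members called, both higher (12.5%). Of all ATAC regions tested, 9.79% were called in either direction and 4.66% as higher. The same 2 were the members whose 8 GFP-positive libraries all lay above the 8 GFP-negative libraries, which held for 0.674% of all tested regions. No member had all GFP-positive libraries below (0.923% of all). Before adjustment, 4 of 16 had p below 0.05, against 25.2% of all. Differences were positive at 13 of 16 members with a median log2 of 0.17, and the median over all regions was -0.01. The authors' deposited table, whose sort term covers Fed and Fast only, gives an FDR for 14 of the 16 members. It is below 0.05 in 0 of them, and in 140 of the 34310 ATAC regions with an FDR. In the table's sort contrasts within Fast, Lep2 and Lep24, 0 members had an FDR below 0.05.

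At Socs3, the feedback inhibitor, the 2845 bp ATAC region at chr11:117829329-117832173 had a mean signal of 26.2 per kb. In GFP-positive libraries its signal was 88.8 and 87.8 in Fed, 72.9 and 79.4 in Fast, 104.5 and 129.4 in Lep2, and 133.4 and 84.1 in Lep24. In GFP-negative libraries it was 71.6 and 47.3 in Fed, 48.7 and 30.3 in Fast, 52.2 and 58.1 in Lep2, and 44.7 and 61.4 in Lep24. The lowest GFP-positive library lay just above the highest GFP-negative one, so the sorts did not overlap. Means were 97.5 ± 22.8 and 51.8 ± 12.3 (SD, n = 8 each), a log2 difference of 0.91 with an SE of 0.13, or 1.87-fold (limma, adjusted p = 0.000159). GFP-positive was higher in 8 of 8 pairs of the same treatment and replicate number. Such pairs, here and below, match libraries by number only, and the main fit did not use them. The share of all regions with the same order in 8 of 8 pairs is not given, so these counts are description only. With each library left out in turn the log2 difference was 0.82 to 0.99. The sort term of the authors' deposited table stands for the saline groups, Fed and Fast, and not for all 16 libraries: with the table's interaction term for Lep2 added, it came within 0.05 of the table's own sort contrast in Lep2 for 98.9% of ATAC and 99.9% of H3K27ac regions. For the 2845 bp region that saline term was a log2 fold change of 0.71 with an FDR of 0.0539, where the ratio of mean signal over the Fed and Fast libraries was 0.73 on the log2 scale.

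The other 6 ATAC members of the Socs3 window were not called, with log2 differences from -0.17 to 0.36. They included the 2367 bp region at 117823571 to 117825937, with 57.5 ± 10.7 in the GFP-positive and 51.5 ± 9.18 in the GFP-negative libraries (SD, n = 8 each), and the 943 bp region at 117815342 to 117816284, with 24.1 ± 5.92 and 19.0 ± 6.90. Both share an H3K27ac region with the called one. The 1075 bp region at 117847674 to 117848748 had 31.8 ± 4.08 and 33.1 ± 5.61. The remaining 3, of 756, 859 and 348 bp, had mean signals of 18.7, 13.7 and 7.54 in GFP-positive and 14.6, 15.1 and 7.75 in GFP-negative libraries, and their sorts overlapped.

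At Ptpn1, which encodes the phosphatase PTP1B, the called region was 826 bp long at chr2:167795139-167795964, and its signal was low. In GFP-positive libraries it was 15.2 and 18.1 in Fed, 15.5 and 15.2 in Fast, 27.5 and 38.0 in Lep2, and 19.1 and 13.1 in Lep24. In GFP-negative libraries it was 9.5 and 7.3 in Fed, 4.0 and 7.8 in Fast, 8.4 and 6.2 in Lep2, and 7.5 and 6.0 in Lep24. Every GFP-positive library exceeded every GFP-negative one, and both Lep2 libraries were the highest of all. Means were 20.2 ± 8.44 and 7.09 ± 1.68 (SD, n = 8 each), a log2 difference of 1.34 with an SE of 0.20, or 2.53-fold on the scale of signal + 1 (limma, adjusted p = 0.000204). It was 1.24 to 1.44 with each library left out. For Fed and Fast alone, the authors' deposited table gives a log2 fold change of 1.14 with an FDR of 0.235. Its sort contrast within Lep2 also had 0 of 14 ATAC members with an FDR below 0.05. The smallest there was 0.0692, at the 2845 bp region of the Socs3 window. The region lies within the 69557 bp H3K27ac region, whose own log2 difference between sorts was -0.02 with a 95% interval of -0.34 to 0.29.

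The other 5 ATAC members of the Ptpn1 window had positive differences, from 0.12 to 0.46 on the log2 scale, and were not called. The one with the highest signal per kb (32.4) was the 1864 bp region at 167756920 to 167758783, with 63.9 ± 5.06 in the GFP-positive and 56.8 ± 5.93 in the GFP-negative libraries (SD, n = 8 each), higher in 7 of 8 pairs. The 2517 bp region had 41.6 ± 6.83 and 37.1 ± 5.80, and the 2715 bp region 33.8 ± 10.4 and 30.8 ± 9.10. The remaining 2, of 759 and 387 bp, had means of 25.2 and 9.44 in GFP-positive and 20.8 and 6.88 in GFP-negative libraries, with overlapping sorts.

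At the STAT genes no ATAC member was called, and all 3 differences were positive. The most open member, of 1657 bp, ranged from 153.3 over a median of 193.9 to 261.1 in the GFP-positive and from 126.0 over 174.7 to 214.9 in the GFP-negative libraries. The sorts overlapped, and the log2 difference was 0.18 with a 95% interval from -0.08 to 0.43 (limma, adjusted p = 0.402). After quantile normalization it was called (0.30, limma adjusted p = 0.0184). Its replicates separated instead: replicate 1 had 126.0 to 189.1 and replicate 2 197.7 to 261.1 over the 8 groups. ATAC replicates also differed beyond this region. Of all ATAC regions, 2.36% to 3.51% had no signal in replicate 1 libraries and 3.75% to 7.31% in replicate 2 libraries. The part of this split in the results was not tested beyond the block for replicate number. The 633 bp region at 100721483 to 100722115 ranged from 9.5 over 19.8 to 25.1 in the GFP-positive and from 9.5 over 11.1 to 17.4 in the GFP-negative libraries. Its log2 difference of 0.58 (SE 0.19) had an adjusted p of 0.0525 by limma, just outside the threshold, and passed it in 5 alternative fits, among them the fits without Lep2 GFP-positive replicate 1 (0.74, adjusted p = 0.0110) and without Fast GFP-positive replicate 1 (0.62). The 1759 bp region at 100711240 to 100712998 had 54.6 ± 7.12 and 46.3 ± 5.29 (SD, n = 8 each; log2 0.23, limma adjusted p = 0.196).

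**Figure D2:**
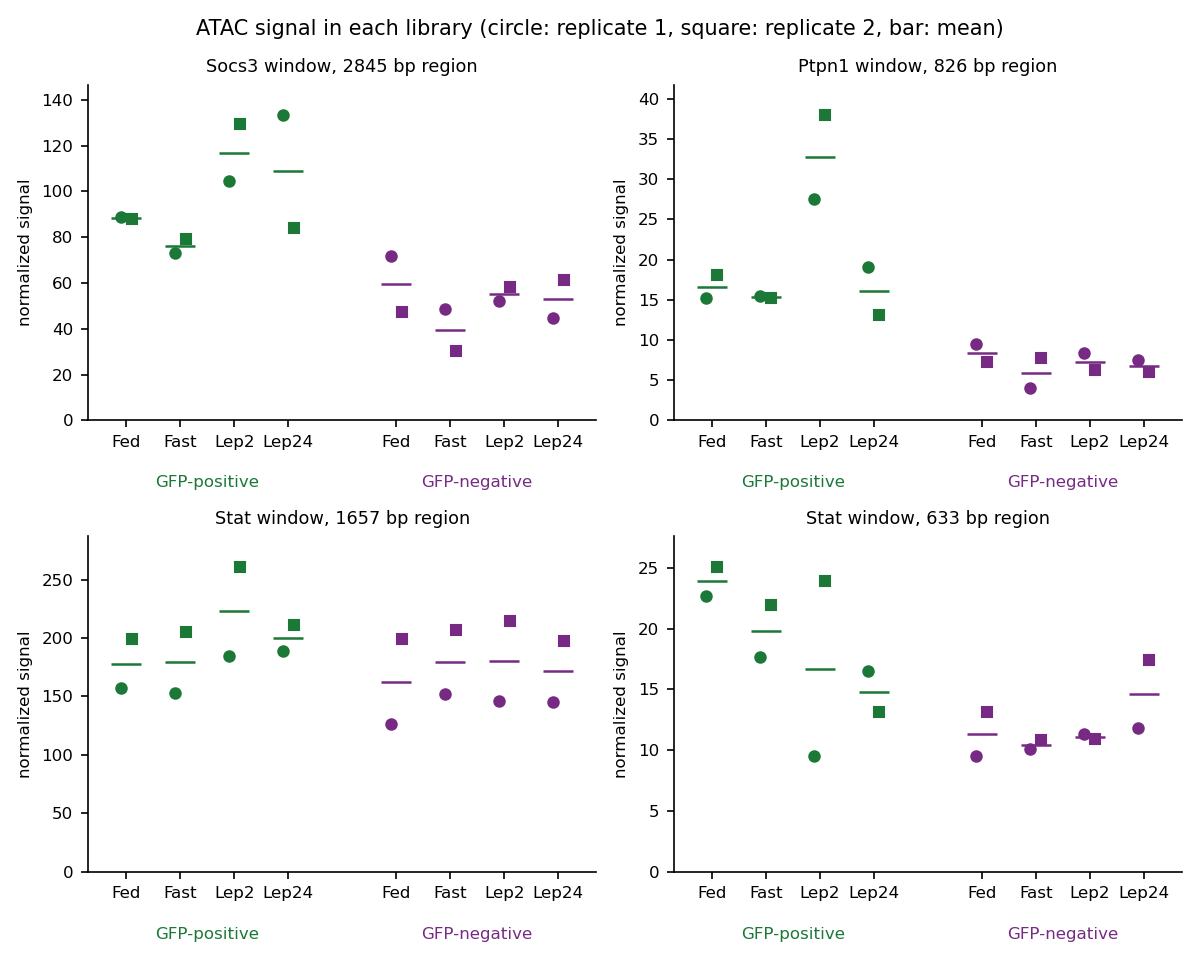
ATAC signal in each library (y axes from 0) by treatment and sort at 4 regions, with replicate 1 as circles, replicate 2 as squares and bars for the group means. The sorts do not overlap at the 2845 bp region of the Socs3 window and the 826 bp region of the Ptpn1 window, and they overlap at both regions of the Stat window.

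H3K27ac differed between the sorts at 2 short regions, 1 in the Socs3 and 1 in the Stat window, both with less signal in LepRb nuclei. These were 2 of 44 tested members, both lower (4.55%), and 0 were called higher. Of all H3K27ac regions tested, 9.22% were called, 3.26% as higher and 5.96% as lower. Before adjustment 8 of 44 had p below 0.05, 2 higher and 6 lower, and 24.3% of all regions did. No member separated the sorts without overlap (0 of 44 above, 0 of 44 below), where 0.674% and 1.65% of all regions did. Of the differences 22 were positive and 22 negative, with a median log2 of 0.00 after rounding. The authors' deposited table, whose sort term covers Fed and Fast only and so other samples than this count, gives an FDR for 37 of the 50 members, below 0.05 in 6 of them, and for 13389 of its 87168 regions with an FDR it is below 0.05. In the Ptpn1 window 0 of 4 members were called by limma, and 0 of 4 had an unadjusted p below 0.05. The count depended on the fit. With a block for library pairs, chosen after seeing the data, 9 of 44 members were called, 3 higher and 6 lower. In that fit 24.4% of all regions were called.

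The 1693 bp region at chr11:117853453-117855145 of the Socs3 window held no ATAC member. Its signal in GFP-positive libraries was 23.2 and 12.1 in Fed, 16.9 and 9.4 in Fast, 33.7 and 27 in Lep2, and 25.4 and 20.3 in Lep24. In GFP-negative libraries it was 44.2 and 38.8 in Fed, 37.6 and 41.3 in Fast, 30.9 and 32.6 in Lep2, and 46.8 and 42.4 in Lep24. The sorts lay well apart in Fed, Fast and Lep24 and met in Lep2, where 1 GFP-positive library exceeded both GFP-negative ones. Means were 21.0 ± 8.04 and 39.3 ± 5.51 (SD, n = 8 each), a log2 difference of -0.96 (SE 0.17, limma adjusted p = 0.00485), with GFP-positive lower in 7 of 8 pairs. Within the other 10 libraries the log2 difference was -1.21 (limma adjusted p = 4e-05), and within the 6 it was -0.55 (adjusted p = 0.308), where it was not called. The authors' deposited table lists -1.30 with an FDR of 0.000168 for Fed and Fast alone, which leaves out the Lep2 libraries where the sorts met.

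The 1971 bp region at chr11:100765826-100767796 of the Stat window also held no ATAC member. In GFP-positive libraries its signal stayed between 17.7 and 23.3 in all treatments. In GFP-negative libraries it was 22.6 and 42.7 in Fed, 58.0 and 49.0 in Fast, 30.9 and 36.8 in Lep2, and 29.8 and 47.0 in Lep24. The sorts touched only through 1 Fed GFP-negative library, and the Fast GFP-negative libraries were the highest. Means were 19.4 ± 1.96 and 39.6 ± 11.7 (SD, n = 8 each), a log2 difference of -0.94 (SE 0.17, limma adjusted p = 0.00466) that was negative in 8 of 8 pairs. It was -1.16 within the other 10 libraries, where it was called, and -0.58 within the 6, where it was not (limma adjusted p = 0.344). The 6 hold no Fast library, so set and treatment cannot be told apart here. The authors' deposited table gives, for Fed and Fast alone, a log2 fold change of -1.01 and an FDR of 0.00382.

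**Figure D3:**
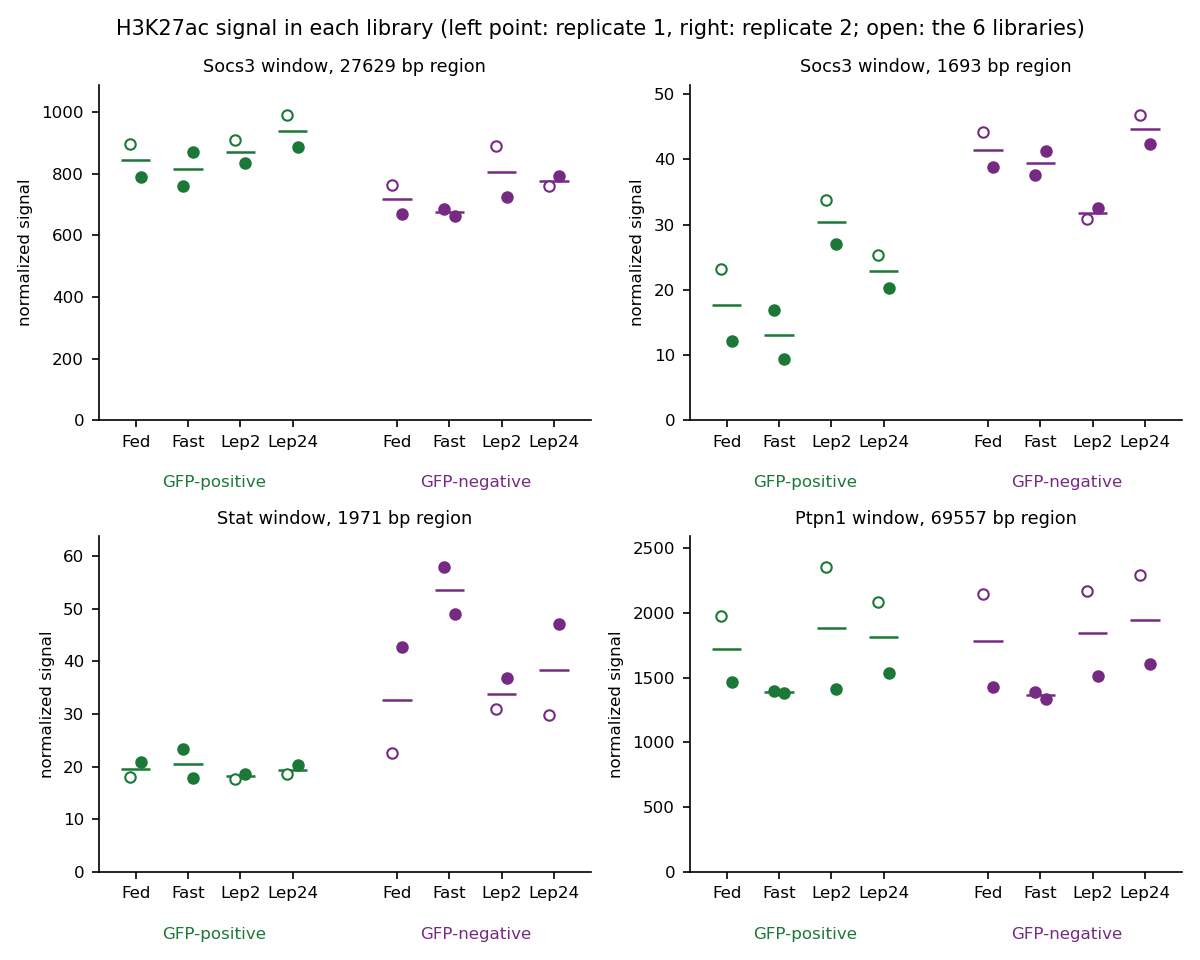
H3K27ac signal in each library (y axes from 0) by treatment and sort at 4 regions, with the 6 libraries as open points and bars for the group means. At the 69557 bp region of the Ptpn1 window the open points lie above all filled points in both sorts, and at the 1693 and 1971 bp regions the GFP-positive values lie mostly below the GFP-negative ones.

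The H3K27ac region around the called Socs3 ATAC region was not called. This 27629 bp region at 117810180 to 117837808 had a median signal of 878 and a highest of 990.8 in the GFP-positive libraries, and a median of 742 and a highest of 888.8 in the GFP-negative libraries. GFP-positive was higher in 8 of 8 pairs although the ranges overlapped. Means were 868 ± 72.0 and 744 ± 75.2 (SD, n = 8 each), a log2 difference of 0.22 (SE 0.09; limma adjusted p = 0.149 over all 16 libraries), where the ATAC signal inside it differed by 0.91. The difference was 0.23 within the other 10 libraries (adjusted p = 0.000375, called) and 0.22 within the 6 (adjusted p = 0.117, not called). It was also called after quantile normalization (0.30, limma adjusted p = 0.0294). In the authors' deposited table its FDR was 0.0318 for Fed and Fast alone. Over the 8 group means the signal of this region followed that of the called ATAC region with r = 0.89, the closest of the 11 H3K27ac members of the window (median r -0.15). The other windows differed. In the Stat window the 1657 bp ATAC region went closest with a 711 bp H3K27ac region (r = 0.70), not with the region around it. In the Ptpn1 window the strongest ATAC region, of 1864 bp, lies in the 69557 bp H3K27ac region, which had the lowest r of 4 members, 0.10. Each r describes 8 means that differ in sort and treatment and carries no test.

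Other members with high H3K27ac signal were not called over all 16 libraries. In the Stat window the 18302 bp region at 100705742 to 100724043, which held 2 ATAC members, had 603 ± 51.5 in the GFP-positive and 599.6 ± 67.5 in the GFP-negative libraries (SD, n = 8 each). The 8196 bp region around the most open ATAC region had 289.8 ± 52.3 and 226 ± 50.6, was higher in 8 of 8 pairs and was not called (log2 0.37, limma adjusted p = 0.174). It was named after its values were seen, as the only member called within the 6 libraries (log2 0.46, limma adjusted p = 0.0479), and it was also called within the other 10 (0.32). At the left edge of the Socs3 window a 28305 bp region, partly outside it, had a mean of 672 in the 6 libraries and 268 in the other 10, beside a log2 difference between sorts of 0.13 that was called within the other 10 alone (0.20, limma adjusted p = 0.0210). Next to it, the 14185 bp region at 117790605 to 117804789 had 387 ± 59.1 in the GFP-positive and 324 ± 51.4 in the GFP-negative libraries (SD, n = 8 each), higher in 8 of 8 pairs. Its log2 difference was 0.26 (limma adjusted p = 0.226), and it was called within the other 10 libraries (0.26, adjusted p = 0.00168).

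In the Stat window the 19248 bp region at 100675496 to 100694743 was lower in GFP-positive libraries in 8 of 8 pairs, with 304 ± 60.2 against 368 ± 57.6 (SD, n = 8 each). It was called within the other 10 libraries (log2 -0.33, limma adjusted p = 0.000735) and not over all 16 (-0.28, adjusted p = 0.191). The 15902 bp region at 100816936 to 100832837, which reaches past the edge of the window, was also lower in 8 of 8 pairs, with 246 ± 76.8 against 320.1 ± 64.5 (SD, n = 8 each). Its log2 difference was -0.51 within the other 10 libraries, where it was called, and -0.41 over all 16 (limma adjusted p = 0.139). In the Ptpn1 window the 4170 bp region at 167749395 to 167753564 had 119 ± 23.7 and 99.1 ± 20.5 (SD, n = 8 each), higher in 8 of 8 pairs, and was called within the other 10 (log2 0.32, limma adjusted p = 0.00589) but not over all 16 (0.26, adjusted p = 0.293). The 7097 bp region beside it had 103 ± 38.2 and 98.7 ± 42.8 (SD, n = 8 each), with overlapping sorts.

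**Figure D4:**
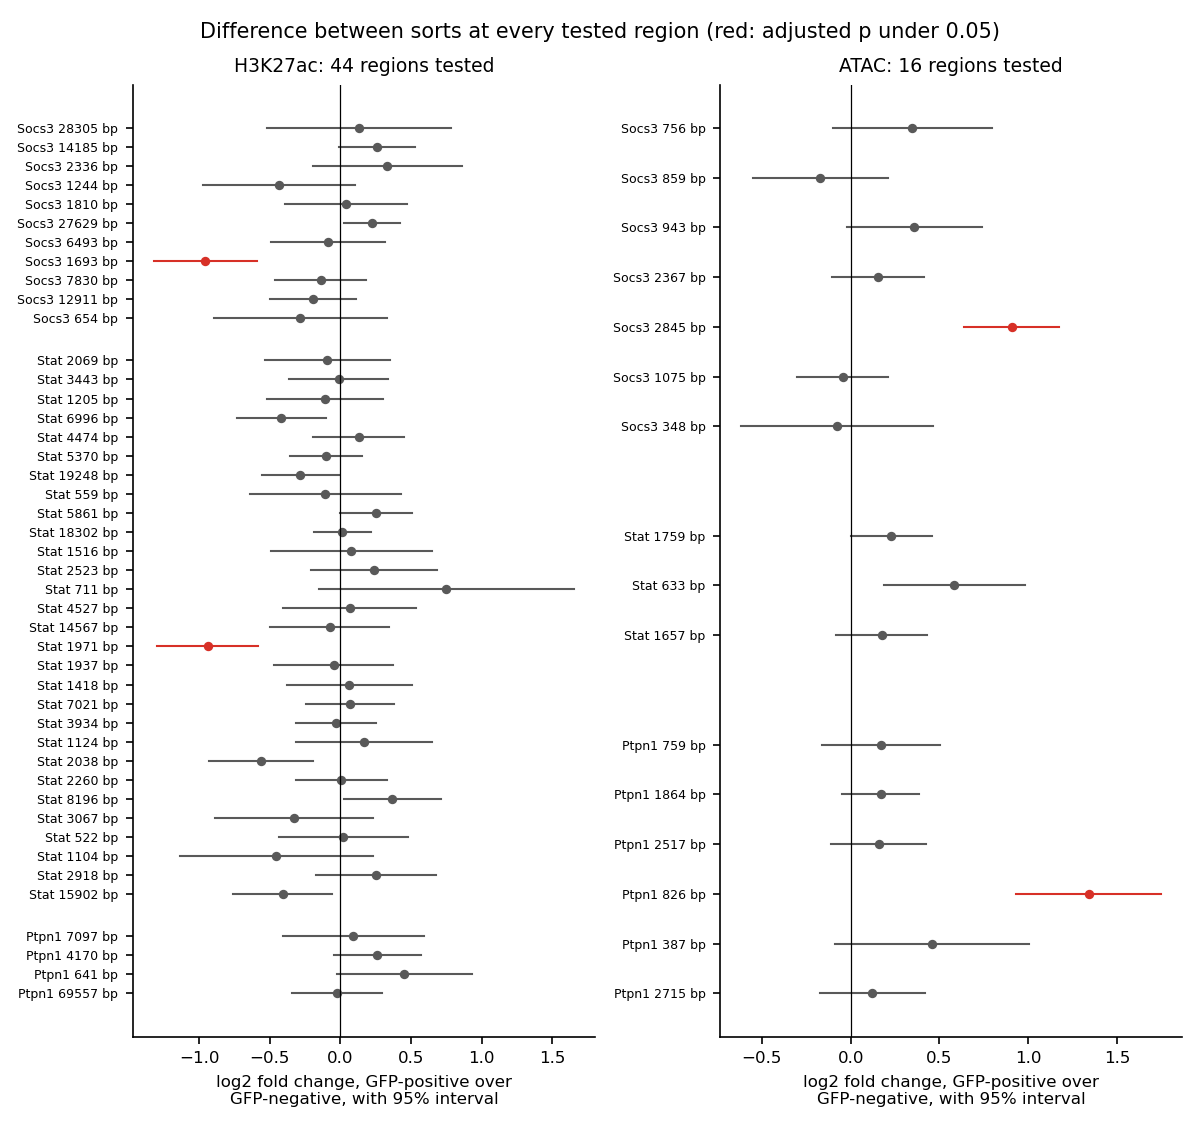
Log2 fold change of signal + 1, GFP-positive over GFP-negative, with its 95% interval for each of the 44 H3K27ac and 16 ATAC members tested, named by window and length and ordered along the window, with called regions in red. The 2 called ATAC regions lie to the right of 0 and the 2 called H3K27ac regions to the left.

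The count of called H3K27ac members changed with the library set. Within the other 10, 18 of 44 members (40.9%) were called, 8 higher and 10 lower, against 32.4% of all regions. These counts were the same in the fit of group means and in the fit with treatment and sort as terms. With the set as a term in the fit of all 16, 11 members (25.0%) were called, 4 higher and 7 lower, against 26.6% of all. Within the 6 alone 1 member was called, against 4.1% of all. The sign was the same in the 6 and in the other 10 for 24 of 44 members, and for 15 of the 18 called in the 10.

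**Figure D5:**
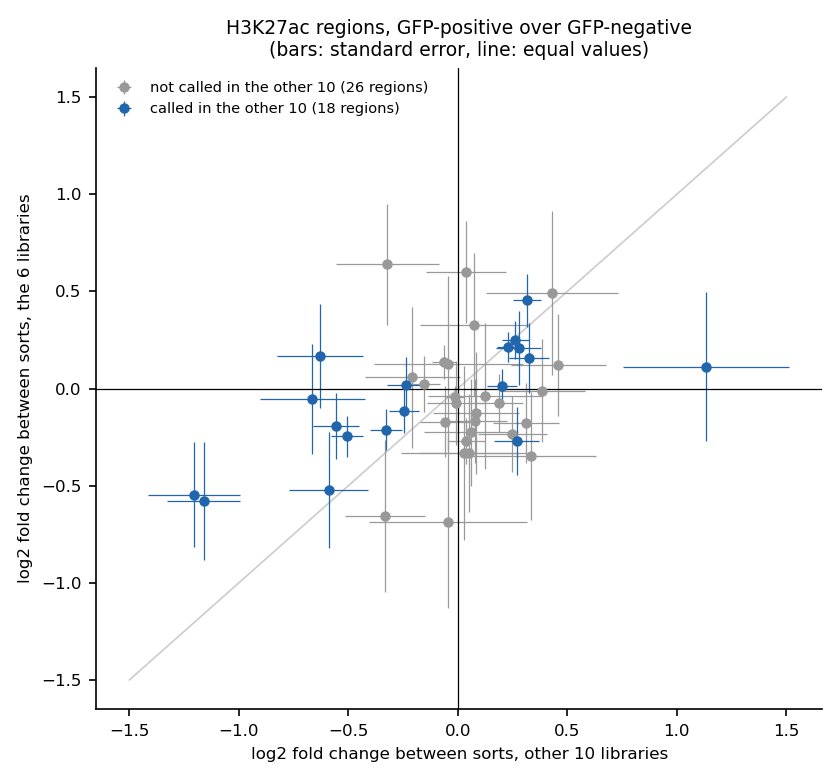
Log2 fold change between sorts for each of the 44 tested H3K27ac members within the other 10 libraries (x axis) and within the 6 libraries (y axis), with standard errors. The grey line marks equal values and blue points the 18 regions called in the 10. The 2 regions at the lower left, of 1693 and 1971 bp, were lower in GFP-positive nuclei in both sets.

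No member was called for fasting or leptin in these fits. In the 6 comparisons within a sort and the 3 differences between sorts, limma called 0 of 44 H3K27ac and 0 of 16 ATAC members, as it called 0.0% of all regions in each of them. The comparisons of Fed, Lep2 and Lep24 share the Fast libraries. With 2 libraries per group the 95% interval of a treatment change reached a median of 0.86 (H3K27ac) and 0.82 (ATAC) on the log2 scale to each side. The threshold after adjustment asks for more than that, so the 0 calls do not exclude changes of this size or larger ones. In H3K27ac the 2 libraries of each Fed, Lep2 and Lep24 group fall in different library sets. A difference between the sets thus enters the spread behind these intervals, and its share was not tested. By the authors' deposited table, 0 members had an FDR below 0.05 in any comparison of leptin with saline.

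Counts before adjustment were as follows for ATAC, of 16 members. In LepRb nuclei 0 members had p below 0.05 for Fast against Fed (6.56% of all regions), 4 for Lep2 against Fast (7.85%), and 1 for Lep24 against Fast (6.7%). In GFP-negative nuclei the counts were 3 (1.97%), 0 (1.5%) and 0 (1.49%). The differences of these changes between sorts gave 1 member each (3.95%, 3.98% and 2.97%). Of the 4 members in Lep2 against Fast, 3 were higher and 1 lower.

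Both ATAC regions called between sorts were among those 3. At the 2845 bp region of the Socs3 window both Lep2 libraries exceeded both Fast libraries in each sort, with log2 differences of 0.61 in GFP-positive nuclei (limma, adjusted p = 0.583) and 0.51 in GFP-negative nuclei (adjusted p = 1.0). The difference between sorts in this change was 0.10 with a 95% interval from -0.65 to 0.85, so a change particular to LepRb nuclei was not shown. At the 826 bp region of the Ptpn1 window the Lep2 change was 1.03 in GFP-positive nuclei (limma, adjusted p = 0.542) and 0.31 in GFP-negative nuclei, and the difference between sorts was 0.72 with a 95% interval from -0.44 to 1.87. In Lep24, with leptin given 3 times, the difference from Fast was 0.04 in GFP-positive nuclei. Both Lep2 libraries lay above both Fast libraries in GFP-positive nuclei at 4 of 16 ATAC members, and at 14.8% of all regions. In GFP-negative nuclei they did at 6 of 16 members, for which no share of all regions is given. Both lay below at 3 of 16 members in GFP-positive and at 2 of 16 in GFP-negative nuclei.

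Counts before adjustment for H3K27ac, of 44 members, were 0 for Fast against Fed (1.91% of all regions), 2 for Lep2 against Fast (3.27%) and 6 for Lep24 against Fast (2.65%) in LepRb nuclei. In GFP-negative nuclei they were 3 (5.98%), 1 (4.63%) and 1 (6.05%). For the differences between sorts they were 1 (2.36%), 2 (2.36%) and 1 (2.17%). All 6 members in Lep24 against Fast were higher with leptin (1.63% of all regions were), by 0.74 to 1.19 on the log2 scale, and their adjusted p was 0.942 by limma. Over all 44 members this change was positive at 28 in GFP-positive and at 31 in GFP-negative nuclei, with medians of 0.12 and 0.19. Its median difference between sorts was -0.04. In both sorts the smallest p fell on the 1244 bp region of the Socs3 window, at 1.19 and 1.22. Replicate 1 of Lep24 belongs to the 6 libraries and neither Fast library does. In GFP-positive nuclei both Lep24 libraries lay above both Fast libraries at 17 of 44 members, and at 21.3% of all regions. In GFP-negative nuclei they did at 19 of 44 members, for which no share of all regions is given. Both lay below at 10 of 44 members in GFP-positive and at 7 of 44 in GFP-negative nuclei.

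The smallest p of any treatment change in LepRb nuclei fell on the 1693 bp region of the Socs3 window, the one with less acetylation in these nuclei. Its Lep2 libraries, at 33.7 and 27, lay above its Fast libraries, at 16.9 and 9.4, a log2 difference of 1.19 (limma, adjusted p = 0.923). In GFP-negative nuclei the Lep2 libraries, at 30.9 and 32.6, lay below the Fast libraries, at 37.6 and 41.3. The difference between sorts was 1.5 on the log2 scale and was not called (limma, adjusted p = 1.0). Lep2 replicate 1 is among the 6 libraries and replicate 2 is not. Both replicates had this order against the Fast libraries, and the part of the library set was not tested.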

How the data were processed

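Of the 75 samples, 16 H3K27ac ChIP-seq and 16 ATAC-seq libraries were used. The 23 RNA samples and the 16 ChIP and 4 ATAC inputs were not analysed here. Per the file headers, the authors deposited normalized signal for every region and library, together with their own log2 fold changes, p-values and FDR, printed here under the authors' name. No source used here says how the signal was normalized. Build mm9 is named in the submitters' processing notes, which also list, with no role for any tool, DESeq2 1.16.1, MACS2, Bowtie2 2.2.6, STAR 2.5.2b, HTSeq 0.6.0, CASAVA 1.8 and Bowtie 1.2. Per the labels' protocols, 300000 to 540000 nuclei were sorted per ChIP. Libraries were placed in groups by title, treatment and sort. Sequencing depth is not shown by normalized signal.

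Regions in the lowest 10% of mean signal were dropped, with cut-offs of 5.96 (H3K27ac) and 5.44 (ATAC), and 113752 and 43772 were tested. Values on the log2(signal + 1) scale entered a limma 3.58.1 model (R 4.3.3) of 8 group means and an intensity-dependent prior, and adjusted by Benjamini-Hochberg over all regions in each of 10 two-sided comparisons. The fit was tested on simulated data. Plots used matplotlib 3.10.9. Starts were raised by 1 so that positions count from 1.

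The rule for named regions took every tested ATAC member, every called H3K27ac member, the 3 H3K27ac members with the highest mean in each window, and the member with the smallest p of each comparison. The members and lists were chosen with earlier results of these data known. A list of 20 further pathway genes was not run, since the gene table used here is of build GRCm38.p6. Alternatives were no filter, quantile normalization, pseudocounts of 0.1 and 5, an adjusted p of 0.01, regions wholly inside a window, a block for replicate number, only the compared groups, each library left out, and, for H3K27ac, the set of 6 libraries as a term or left out. A block for library pairs, the 6 libraries alone, and the other 10 with treatment and sort as terms were chosen after seeing the data.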

Additional observations from a re-analysis of the deposited data

How the results depend on the processing

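The 2 ATAC regions called between sorts kept their direction and their call in every alternative run, with log2 differences of 0.82 to 0.99 in the Socs3 window and 1.01 to 1.45 in the Ptpn1 window. Counts of called ATAC members stayed at 2 or 3, and treatment changes and their differences between sorts gave 0 called members in every alternative run. The count of H3K27ac members called between sorts, 2, became 8 with the replicate block (16.2% of all regions), 9 with the block by library pair (24.4%; 3 higher and 6 lower), 11 when membership in the 6 was a term, 18 in the other 10 libraries (18 also with treatment and sort as terms) and 1 in the 6 alone, and the cause was not tested. With a library left out it was 2 to 4, the 4 without Fed GFP-negative replicate 1. The 2 called H3K27ac regions lost their call in the 6 libraries alone (-0.55 and -0.58), where fewer samples entered the fit and the differences were also smaller, and the cause was not tested. The 6 hold no Fast library, so set and treatment cannot be told apart in this loss.

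Same-numbered libraries of the sorts did not deviate together throughout, so the numbers were not taken as pairs: the correlations of their replicate differences were 0.45 in Fed, 0.01 in Fast, 0.50 in Lep2 and 0.37 in Lep24 for H3K27ac, and 0.04 to 0.14 for ATAC. Between Fast and the other treatments of a sort they were -0.16 to 0.01 in H3K27ac and 0.10 to 0.16 in ATAC. The block also called the 633 bp ATAC region of the Stat window (0.58, limma adjusted p = 0.0299).

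Differences near 0 changed sign. Between sorts these were the 1075 bp (-0.0983 to 0.00644 with a library left out) and 348 bp ATAC regions of the Socs3 window (-0.263 to 0.107 with a library left out, 0.00463 with quantile normalization), and the H3K27ac regions of 7097 bp (-0.0561 to 0.235 with a library left out, -0.0736 in the 6 libraries alone) and 69557 bp (-0.117 to 0.0677 with a library left out, 0.102 with quantile normalization) of the Ptpn1 window, 28305 bp of the Socs3 window (-0.0496 to 0.312 with a library left out) and 18302 bp of the Stat window (-0.0275 to 0.0514 with a library left out, -0.0591 in the other 10, -0.0622 with treatment and sort as terms there). With a library left out, Fast against Fed in GFP-positive nuclei was -0.0387 to 0.354 at the 1759 bp ATAC region, and the difference of that change between sorts was -0.0366 to 0.539 at the 641 bp H3K27ac region of the Ptpn1 window. Of the other values of named regions under an alternative, 2022 kept their direction and their side of the threshold, 31 newly passed it and 2 no longer did. Precision is limited by 2 libraries per group.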
